A study of Mus musculus with 2 samples.

Results

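The common gamma chain cytokine receptors were followed here through 7 genes in mouse spleen cells: the receptor chains Il2rg, Il2rb, Il7r, Il4ra and Il21r and the Janus kinases Jak1 and Jak3. The genes were taken by their listed symbols, and all 7 were present in both expression tables, among 28233 genes with a read in the TAS-Seq library and 24191 in the BD WTA library. Their level is given in CPM, the reads of a gene per 1000000 reads of the same cell, averaged over the cells of a class. The classes were naive-like CD8 T cells, memory-like CD8 T cells, CD4-like T cells, natural killer (NK)-like cells and B-like cells.

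Both libraries came from 1 pool of spleen cells, and each holds other cells of it. Female C57BL/6J mice, 10 weeks old, received Lewis lung carcinoma (LLC) cells, a transplantable mouse lung tumour line, under the skin, and an antibody against CD4 at 200 μg per dose on day 5 and day 9. The spleens were taken on day 12, the cells of 3 spleens were pooled, red cells were lysed, and the rest was frozen and later thawed. About 2000 cells were loaded onto 1 BD Rhapsody cartridge, in which each nanowell holds a cell and a bead that captures polyadenylated RNA, and the beads were halved after cDNA synthesis. In TAS-Seq, terminal transferase extends the cDNA with cytidines, which then serve as the priming site for amplification, whereas the BD WTA kit of the manufacturer uses random priming. All cells therefore shared the tumour and the antibody, no untreated spleen was compared, and each method had 1 library. The differences below are values of these libraries, given without tests, and intervals cover counting error only.

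Cytokines of this family signal through receptors that share the chain encoded by Il2rg and differ in a private chain. Il2rb serves IL-15 and IL-2, Il7r serves IL-7, Il4ra serves IL-4, and Il21r serves IL-21. The private chains bind the kinase JAK1 and the shared chain binds JAK3, and the kinases activate STAT proteins. In the spleen these signals are known for the survival of naive T cells, the upkeep of memory CD8 T cells and NK cells, and the help that B cells receive.

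The 5 receptor chains share a sequence feature of their receptor class, so its presence in all 5 follows from the choice of this family. Each coding sequence holds 1 stretch for tryptophan, serine, any residue, tryptophan and serine, the WSXWS motif that marks this class of receptors near the membrane. The stretches are printed to show how alike the chains are at this site. Capitals mark the 15 bases of the motif, the bases run 5′ to 3′ on the coding strand, and the sequences come from GENCODE mouse release M21 on GRCm38.
Il2rg: caacagTGGAGTAAATGGAGCcagcct
Il2rb: gggaccTGGAGTCCCTGGAGCcagccc
Il7r: ggcttcTGGAGCGAGTGGAGTccaagt
Il4ra: ggcaccTGGAGTGAGTGGAGTcctagc
Il21r: gggaccTGGAGTGAGTGGAGTgacccc

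The middle codon reads lysine in Il2rg, proline in Il2rb and glutamate in Il7r, Il4ra and Il21r. Over 1 principal coding sequence per gene, 71 of 22324 mouse genes (0.318%) encode the motif, and neither Jak1 nor Jak3 does. In Il2rg the printed bases lie in exon 5 of 8 at chrX:101266209-101266235 on the minus strand. In Il2rb they lie in exon 7 of 10 at chr15:78485757-78485783, and in Il7r in exon 5 of 8 at chr15:9511145-9511171, both on the minus strand. In Il4ra they lie in exon 7 of 11 at chr7:125571548-125571574, and in Il21r in exon 6 of 9 at chr7:125628992-125629018, both on the plus strand. Il4ra and Il21r are neighbours, with 23954 bases between the end of the former and the start of the latter. Jak1 lies at chr4:101152367-101265282 on the minus strand, and Jak3 lies at chr8:71676296-71690575 on the plus strand.

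Some annotated genes share exons with the members, and reads there can be placed on either. Insl3 shares exon bases and strand with Jak3 and held 661 reads in TAS-Seq and 370 in BD WTA, where Jak3 held 1886 and 945. Gm20489, on the strand of Il2rg, held 267 and 208 reads beside 16295 and 15208 of Il2rg. The levels of Jak3 are thus uncertain.

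The filters removed 4 barcodes of TAS-Seq and 8 of BD WTA and left 1440 cells, and no cell barcode was shared between the libraries. Total reads per barcode ranged from 15378 to 262041 in TAS-Seq and from 11936 to 291602 in BD WTA. Of these cells, 1052 fell into the classes. There were 75 naive-like CD8, 22 memory-like CD8, 23 CD4-like, 20 NK-like and 405 B-like cells in TAS-Seq, and 77, 11, 30, 26 and 363 in BD WTA, in the same order. Memory-like CD8 cells were the deepest class, with a median of 84294.5 reads per cell in TAS-Seq and 86336 in BD WTA, against 58486 and 46710 in naive-like CD8 cells. Shares of cells with a read are therefore given after each cell was thinned to 20000 reads, with exact 95% Clopper-Pearson intervals.

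The classes carried the defining genes of their names. Mean Cd8a was 881 and 1134 CPM in naive-like CD8 cells and 643 and 871 CPM in memory-like CD8 cells, in TAS-Seq and BD WTA respectively. Ccl5, a chemokine of effector and memory cells, was 2640.1 and 2636 CPM in memory-like against 226 and 133 CPM in naive-like CD8 cells. The CD4-like cells also carried Foxp3, the regulator of regulatory T cells, at 338 and 338 CPM, so they do not stand for all CD4 T cells. Ncr1, an NK cell receptor, was 657 and 1253 CPM in NK-like cells and at most 1.63 CPM in the other classes.

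Cells with a read of a gene from another cell type were more frequent in TAS-Seq for Cd79a and Cd3e, but the mean levels did not all go that way. Cd79a, the B-cell receptor component, had a read in 46.7% of naive-like CD8 cells in TAS-Seq and in 6.58% in BD WTA, although its mean level there was 37.6 and 22.5 CPM against 3317 and 5327 CPM in B-like cells. Cd3e had a read in 9.18% of B-like cells in TAS-Seq and in 0.912% in BD WTA, at means of 4.803 and 13.0 CPM. The summed level of the 6 T-cell markers in B-like cells was 77.8 CPM in TAS-Seq and 88.9 CPM in BD WTA, and that of the 7 B-cell markers ran from 122 to 130.0 CPM in the T-like classes of TAS-Seq and from 25.2 to 36.3 CPM in those of BD WTA. In NK-like cells the 7 B-cell markers summed to 138 and 158 CPM. A low share of cells with a read of a member in TAS-Seq has to be read beside these values.

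Il2rg, the shared chain, was the most even receptor gene across classes. In TAS-Seq its mean level was 477 CPM in naive-like CD8, 571 in memory-like CD8, 477 in CD4-like, 702 in NK-like and 376 CPM in B-like cells. In BD WTA it was 629, 409, 627, 502 and 438 CPM in the same order. No class stood above its neighbour in the order of levels once both libraries were counted, since the 2 values of each neighbouring pair overlapped. The highest class was NK-like in TAS-Seq and naive-like CD8 in BD WTA, and the lowest was B-like and memory-like CD8. At 20000 reads, the share of cells with an Il2rg read ran from 69.1% (64.3 to 73.7) in B-like to 95.5% (77.2 to 99.9) in memory-like CD8 cells in TAS-Seq, and from 60.8% (55.3 to 66.1) to 90.9% (58.7 to 99.8) in BD WTA.

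Il2rb, the chain for IL-15 and IL-2, had the widest range of all members. Its mean level in TAS-Seq was 86.0 CPM in naive-like CD8, 587 in memory-like CD8, 206 in CD4-like, 1079 in NK-like and 2.86 CPM in B-like cells. The BD WTA library had 153, 1061, 636, 1685 and 2.32 CPM. The order was the same in both libraries, with NK-like cells first and B-like cells last. Both values of NK-like cells lay above both of memory-like CD8 cells, whereas memory-like CD8 and CD4-like cells overlapped between the libraries. At 20000 reads an Il2rb read was found in 95% of NK-like cells (75.1 to 99.9) and 95.5% of memory-like CD8 cells (77.2 to 99.9) in TAS-Seq, and in 95.7% (78.1 to 99.9) and 81.8% (48.2 to 97.7) in BD WTA. In naive-like CD8 cells the share was 28.0% (18.2 to 39.6) and 26.3% (16.9 to 37.7), and the median naive-like cell had no read in either library. In B-like cells an Il2rb read was found in 4.34% and 1.22%, which in TAS-Seq is below the share for Cd3e.

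Il7r, the chain for IL-7, was highest in CD8 T cells among the 5 classes of both libraries. The TAS-Seq mean was 740.1 CPM in naive-like CD8, 1177 in memory-like CD8, 448 in CD4-like, 184 in NK-like and 9.43 CPM in B-like cells. The BD WTA mean was 863, 848, 301, 88.8 and 12.0 CPM. Memory-like and naive-like CD8 cells overlapped, and every later step of the order (naive-like CD8, CD4-like, NK-like, B-like) went the same way in both libraries without overlap. The NK-like mean of BD WTA came from 5 of 26 cells with a read, and the highest B-like cluster there held 149.7 CPM. With classes from marker reads the step from naive-like CD8 to CD4-like cells turned in TAS-Seq, at 674 against 812 CPM, and stayed in BD WTA, at 728.4 against 397 CPM. The 3 T-like clusters outside the classes held 779, 855 and 1188 CPM in TAS-Seq, each above naive-like CD8 cells. In BD WTA they held 444, 599 and 828 CPM, below both CD8 classes. Cd4 was raised in the cluster at 855 and 599 CPM. The step from CD8 to CD4-like cells thus does not stand for all CD4 T cells. A read was found in 68.0% of naive-like CD8 cells (56.2 to 78.3) in TAS-Seq and in 71.1% (59.5 to 80.9) in BD WTA. The libraries were apart in memory-like CD8 cells, with 95.5% (77.2 to 99.9) of 22 cells in TAS-Seq and 45.5% (16.7 to 76.6) of 11 cells in BD WTA, where the median cell held 20.9 CPM. The 9.18% of B-like cells with an Il7r read in TAS-Seq equalled the share for Cd3e, a T-cell gene, in the same cells.

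Il4ra, the chain for IL-4, was highest in B-like cells of TAS-Seq, and most cells of every class held no read of it at 20000 reads. In TAS-Seq its mean level was 44.3 CPM in naive-like CD8, 79.5 in memory-like CD8, 61.2 in CD4-like, 15.5 in NK-like and 149.6 CPM in B-like cells. In BD WTA it was 32.8, 31.7, 1.07, 57.9 and 50.8 CPM. The NK-like mean of BD WTA, the highest there, rested on 4 of 26 cells with a read. When the reads of all cells of a class were pooled, B-like cells came first in both libraries, at 125 CPM in TAS-Seq and at 51.7 CPM in BD WTA, where NK-like cells were at 50.2 CPM. A read was found in 35.2% of B-like cells (30.5 to 40.2) in TAS-Seq and in 10.3% (7.26 to 14.1) in BD WTA. In CD4-like cells of BD WTA it was found in 0 of 27 cells, with an upper limit of 12.8%, and in TAS-Seq in 6 of 23.

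Il21r, the chain for IL-21, was spread over B-like and T-like classes and was lowest in NK-like cells. Its mean level in TAS-Seq was 77.2 CPM in naive-like CD8, 94.0 in memory-like CD8, 109 in CD4-like, 29.5 in NK-like and 136 CPM in B-like cells. The BD WTA library had 70.8, 46.2, 203, 12.3 and 108 CPM. B-like cells lay above naive-like CD8 cells, and memory-like CD8 above NK-like cells, in both values of both libraries, and the other neighbours overlapped. The share of B-like cells with a read was 41.6% (36.7 to 46.6) in TAS-Seq and 18.2% (14.2 to 22.8) in BD WTA.

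**Figure D1:**
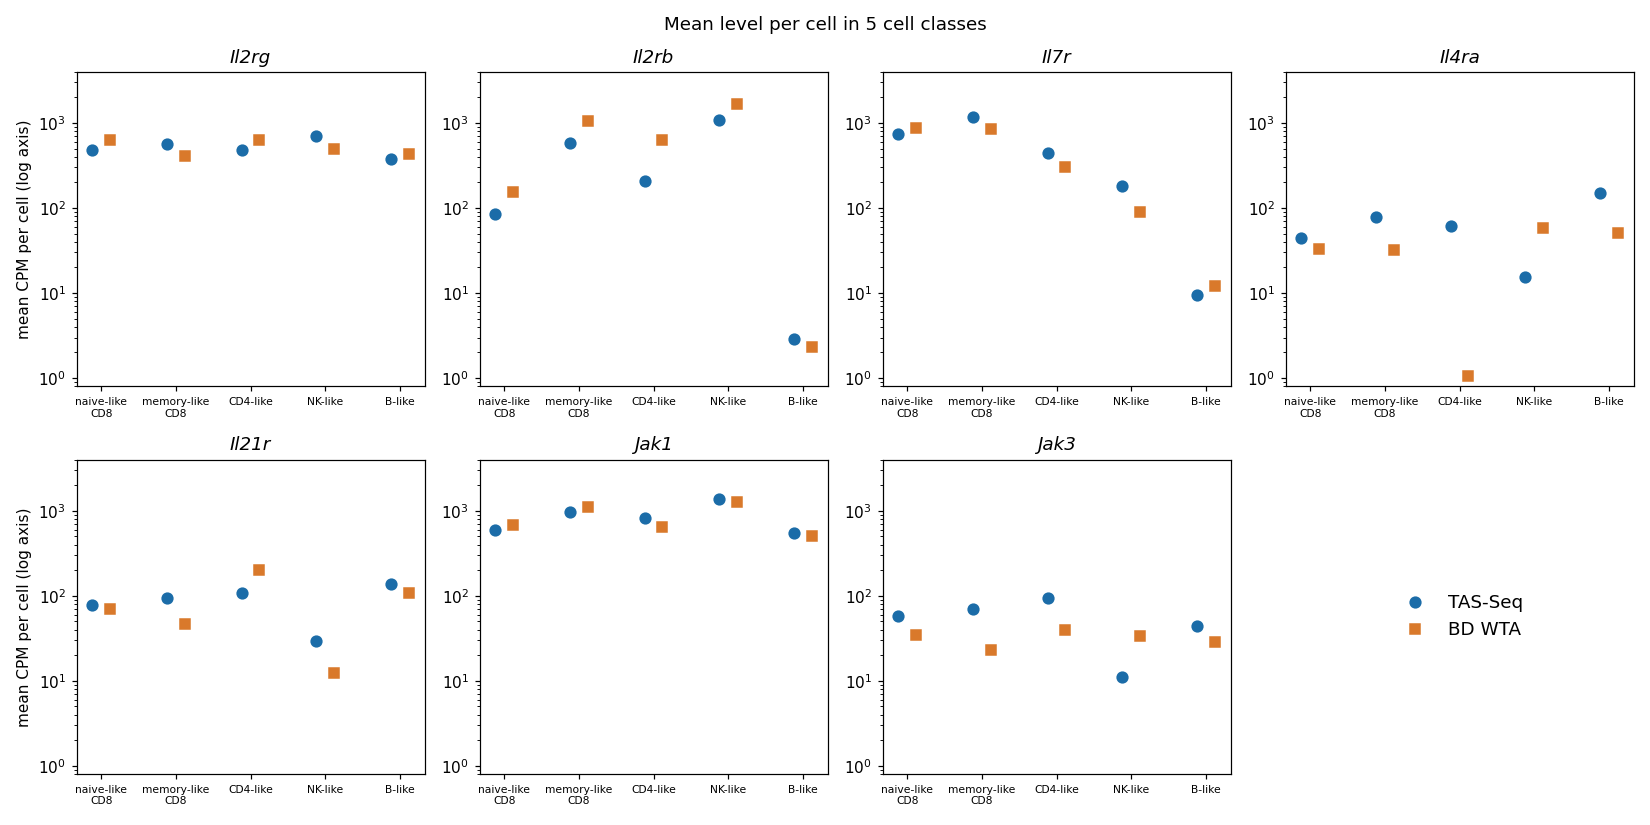
Mean CPM per cell (log axis) of the 7 genes in 5 cell classes, with a circle for TAS-Seq and a square for BD WTA, 1 library each. Il2rb runs from 2.86 and 2.32 CPM in B-like to 1079 and 1685 CPM in NK-like cells, Il7r falls from CD8 to B-like cells, and Il2rg stays between 376 and 702 CPM.

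Jak1, the kinase of the private chains, followed NK-like and memory-like CD8 cells in both libraries. The TAS-Seq mean was 597 CPM in naive-like CD8, 979 in memory-like CD8, 814 in CD4-like, 1376 in NK-like and 544 CPM in B-like cells. The BD WTA mean was 686, 1118, 639, 1264 and 503 CPM. NK-like cells were first and memory-like CD8 cells second in each library, without overlap between these classes or with the next, but with classes from marker reads memory-like CD8 cells were not second in BD WTA. All 20 NK-like cells of TAS-Seq held a read at 20000 reads, as did all 11 memory-like CD8 cells of BD WTA. The share was lowest in B-like cells of TAS-Seq at 79.6% (75.3 to 83.5), and in CD4-like cells of BD WTA at 59.3% (38.8 to 77.6).

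Jak3, the kinase of the shared chain, was at a low level in every class. In TAS-Seq its mean level was 57.4 CPM in naive-like CD8, 70.6 in memory-like CD8, 93.7 in CD4-like, 11 in NK-like and 44.5 CPM in B-like cells. In BD WTA it was 34.9, 23.3, 40.0, 33.9 and 28.4 CPM. CD4-like cells had the highest mean in both libraries, but every neighbouring pair in the order overlapped. The CD4-like mean of BD WTA rested on 2 of 30 cells, 1 of them at 981 CPM. With classes from marker reads, CD4-like cells were not the highest class in either library, at 53.2 and 13.8 CPM against 75.2 CPM in memory-like CD8 cells of TAS-Seq and 35.6 CPM in NK-like cells of BD WTA. At 20000 reads, from 5.00% (NK-like) to 36.4% (memory-like CD8) of TAS-Seq cells and from 6.69% (B-like) to 19.7% (naive-like CD8) of BD WTA cells held a Jak3 read. The mean in NK-like cells of BD WTA came from 3 of 26 cells with a read.

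**Figure D2:**
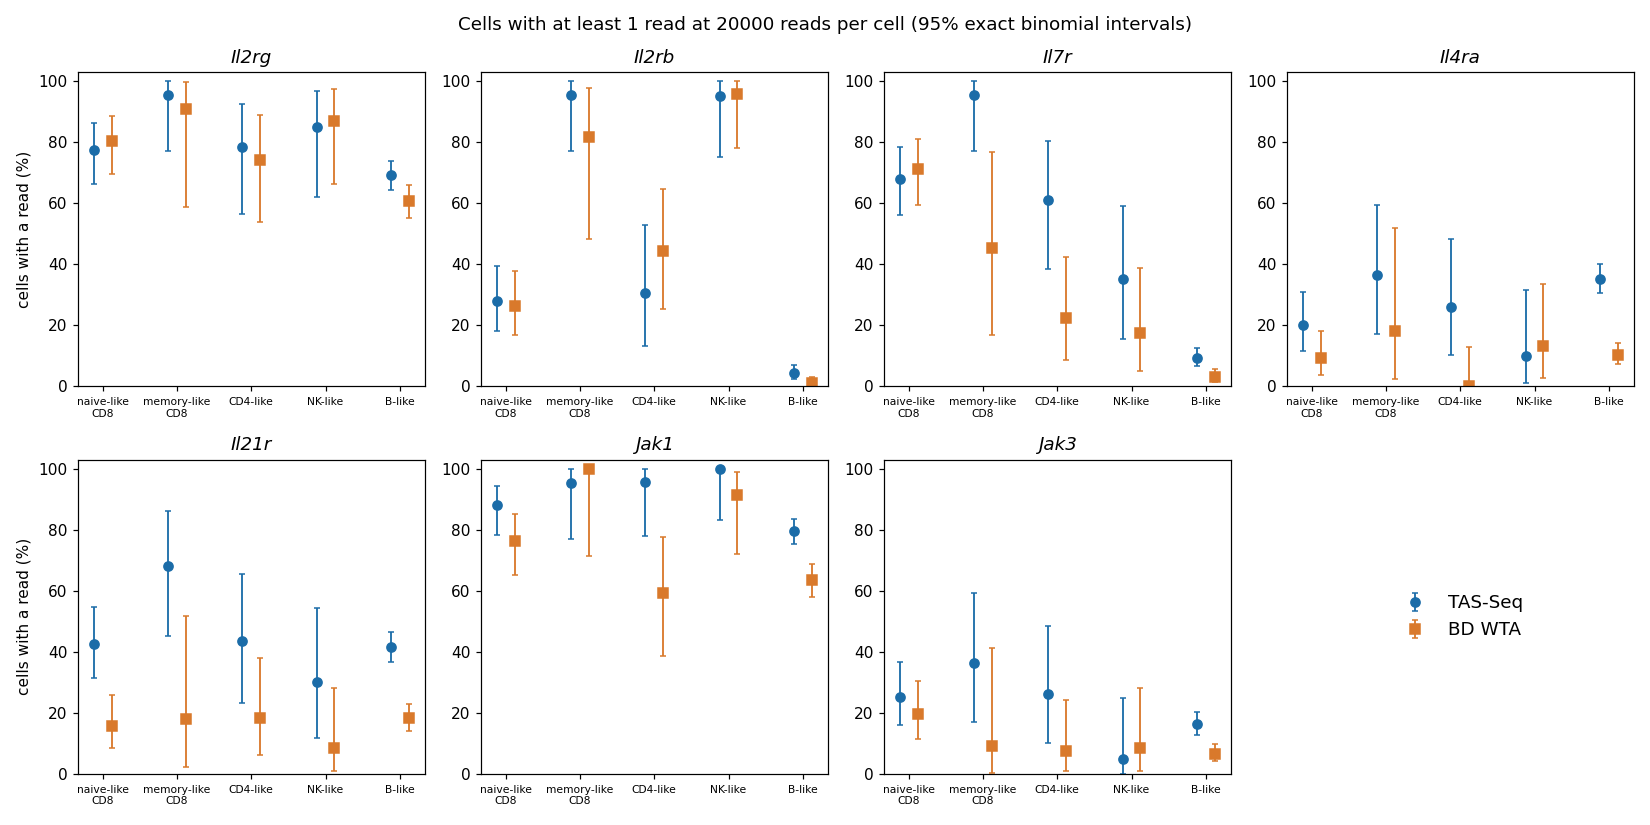
Percent of cells with at least 1 read of each gene after thinning to 20000 reads per cell, by class, for TAS-Seq (circles) and BD WTA (squares), with bars for exact 95% binomial intervals. Il2rb is found in 95% and 95.7% of NK-like cells and in 4.34% and 1.22% of B-like cells, and the intervals of memory-like CD8 cells are wide because these hold 22 and 11 cells.

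The level of single cells varied widely within each class. The SD over cells of Il2rg in naive-like CD8 cells was 592 CPM in TAS-Seq and 599.9 CPM in BD WTA, larger than or close to the means of 477 and 629 CPM. For Il2rb in naive-like CD8 cells the 8 highest cells of each library, of 75 and 77, held 73.4% and 74.6% of the summed CPM. In NK-like cells the 2 highest of 20 and the 3 highest of 26 held 25.4% and 29.8% of it, so that Il2rb was spread over more of the NK-like than of the naive-like cells.

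Memory-like and naive-like CD8 T cells differ in their need for IL-15, which Il2rb serves. Il2rb was 6.76-fold higher in memory-like cells in TAS-Seq (log2 ratio 2.76) and 6.88-fold higher in BD WTA (2.78), on the log2 scale of CPM plus a pseudocount of 1. It was the only 1 of 7 members past 2-fold in the same direction in both libraries. Among all 7836 genes tested, with at least 10 CPM in either class of each library, 5.39% were past 2-fold higher and 7.84% past 2-fold lower, and with 7 genes a count of 1 is not read as a feature of the list. Jak1 was higher by log2 ratios of 0.71 and 0.70, within 2-fold. With classes from marker reads it was at 881 against 585 CPM in TAS-Seq and at 799 against 800.0 CPM in BD WTA, so the difference was not seen in BD WTA. Il7r was 0.67 in TAS-Seq and -0.03 in BD WTA. Il2rg, Il4ra, Il21r and Jak3 stayed within 2-fold and had opposite signs in the libraries. Il2rb stood among the top genes of the memory-like cluster although it was left out of the clustering.

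T-like cells, the mean of the 3 T-cell classes on the log2 scale, differed from B-like cells in both directions. Il2rb was higher by log2 ratios of 5.83 in TAS-Seq and 7.15 in BD WTA, and Il7r by 6.13 and 5.54. The B-like level of Il2rb rested on 57 reads in 38 of 405 cells in TAS-Seq and 45 reads in 5 of 363 in BD WTA. With classes from marker reads its B-like mean in BD WTA was 5.29 in place of 2.32 CPM. The direction is clear, but the size of the Il2rb ratio depends on these few reads. Il4ra was lower, at -1.30 and -1.98. In BD WTA the CD4-like part of this was 1.07 CPM, from 2 reads in 1 of 30 cells. The 3 T-like clusters outside the classes, not part of this comparison, held Il4ra at 108, 129 and 60.6 CPM in TAS-Seq. In BD WTA they held 70.6, 58.6 and 9.37 CPM, beside 149.6 and 50.8 CPM in B-like cells of TAS-Seq and BD WTA. Among 9890 genes tested, 5.03% were past 2-fold higher and 16.8% past 2-fold lower in both libraries, against 2 and 1 of 7 members. The lower value of Il4ra was within 2-fold in TAS-Seq with pooled CPM (-0.94) and with TMM factors (-0.92), and in BD WTA with classes set by marker reads (-0.49). Il2rg and Jak1 were a little higher in T-like cells in both libraries, by 0.43 and 0.31 for the former and by 0.52 and 0.65 for the latter.

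NK-like cells differed from B-like cells in 4 of 7 members. Il2rb was higher by log2 ratios of 8.13 and 8.99, Il7r by 4.15 and 2.78, and Jak1 by 1.34 and 1.33. The size of the Il2rb ratios again depends on the few reads of B-like cells. The Il7r level of NK-like cells rested on few cells. The 2 highest of 20 held 70.6% of its summed CPM in TAS-Seq, and the 3 highest of 26 held 92.6% in BD WTA. Il21r was lower, at -2.17 and -3.03. Past 2-fold in both libraries were 9.43% (higher) and 15.5% (lower) of 8959 genes. Il4ra and Jak3 went opposite ways, at -3.19 and 0.18 for Il4ra and -1.92 and 0.25 for Jak3. Without the cell with the highest value in each class, both were lower in NK-like cells in both libraries. The ratios were then -4.33 and -1.73 for Il4ra and -3.03 and -1.69 for Jak3. In BD WTA, Il4ra was read in 4 NK-like and 42 B-like cells, and Jak3 in 3 and 28. Leaving out the highest cell thus lowers the NK-like mean far more, and the agreement of the libraries is not read as a result. Pooled reads of BD WTA gave 50.2 against 51.7 CPM for Il4ra and 25.1 against 25.6 CPM for Jak3.

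**Figure D3:**
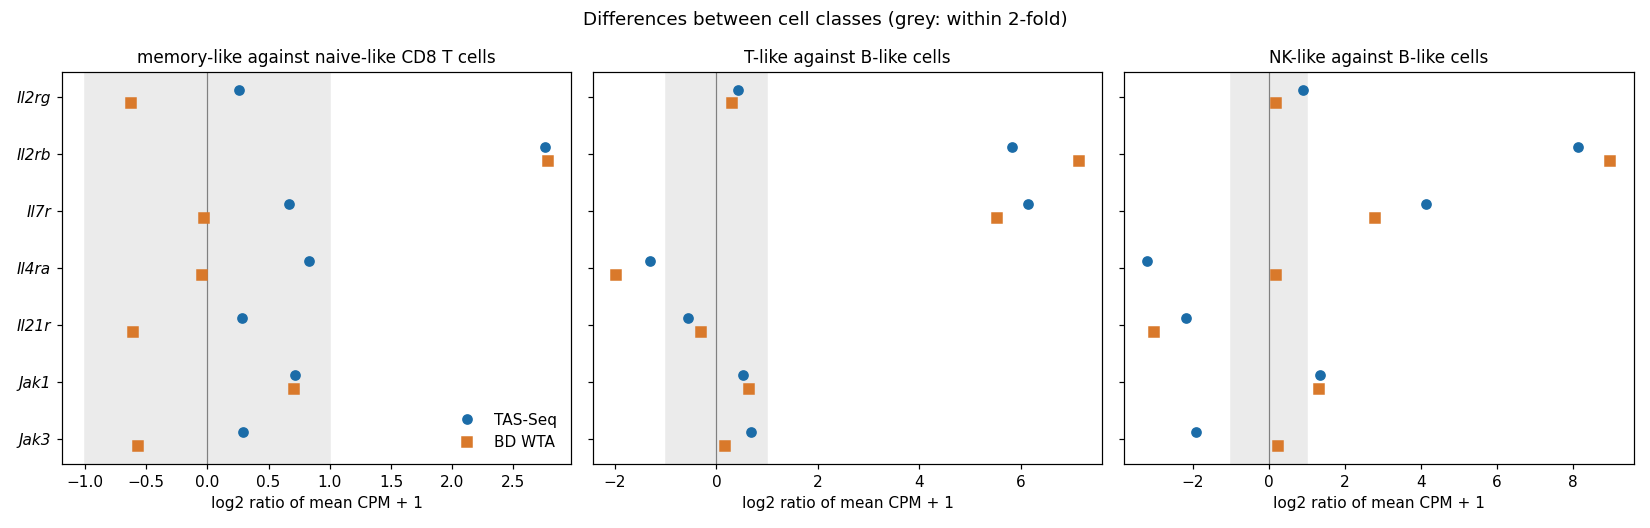
Log2 ratio of mean CPM + 1 for the 7 genes in 3 comparisons of cell classes, with circles for TAS-Seq, squares for BD WTA and a grey band for differences within 2-fold. Il2rb lies right of the band in each comparison, Il7r only against B-like cells, and Il2rg within it throughout.

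Receptors need both chains, so cells were counted that held reads of both at 20000 reads. Il2rg and Il2rb were seen together in 90.9% of memory-like CD8 cells (70.8 to 98.9) and 80.0% of NK-like cells (56.3 to 94.3) in TAS-Seq, and in 72.7% (39.0 to 94.0) and 82.6% (61.2 to 95) in BD WTA. In naive-like CD8 cells they were seen together in 25.3% and 22.4%, and in B-like cells in 2.81% and 1.22%. Il2rg and Il7r were seen together in 50.7% (38.9 to 62.4) and 56.6% (44.7 to 67.9) of naive-like CD8 cells, and in 90.9% and 45.5% of memory-like CD8 cells. Il2rg and Il4ra shared 26.5% of B-like cells in TAS-Seq and 7.29% in BD WTA, and Il2rg and Il21r shared 29.3% and 10.9%. Jak1 and Jak3 were seen together in at most 36.4% of a class in TAS-Seq (memory-like CD8) and 15.8% in BD WTA (naive-like CD8).

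The joint shares lay near the product of the shares of the single genes. For Il2rg and Il2rb in memory-like CD8 cells of TAS-Seq the product was 91.1%. There 21 of 22 cells held a read of each gene, so the joint share could hardly differ from the product. For Il2rg and Il7r in naive-like CD8 cells the product was 52.6% in TAS-Seq and 57.0% in BD WTA. The class with the highest joint share was the same in both libraries for 2 of 5 pairs, Il2rg with Il4ra and Il2rg with Il21r, both in memory-like CD8 cells, of which 2 of 11 held both genes of either pair in BD WTA.

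**Figure D4:**
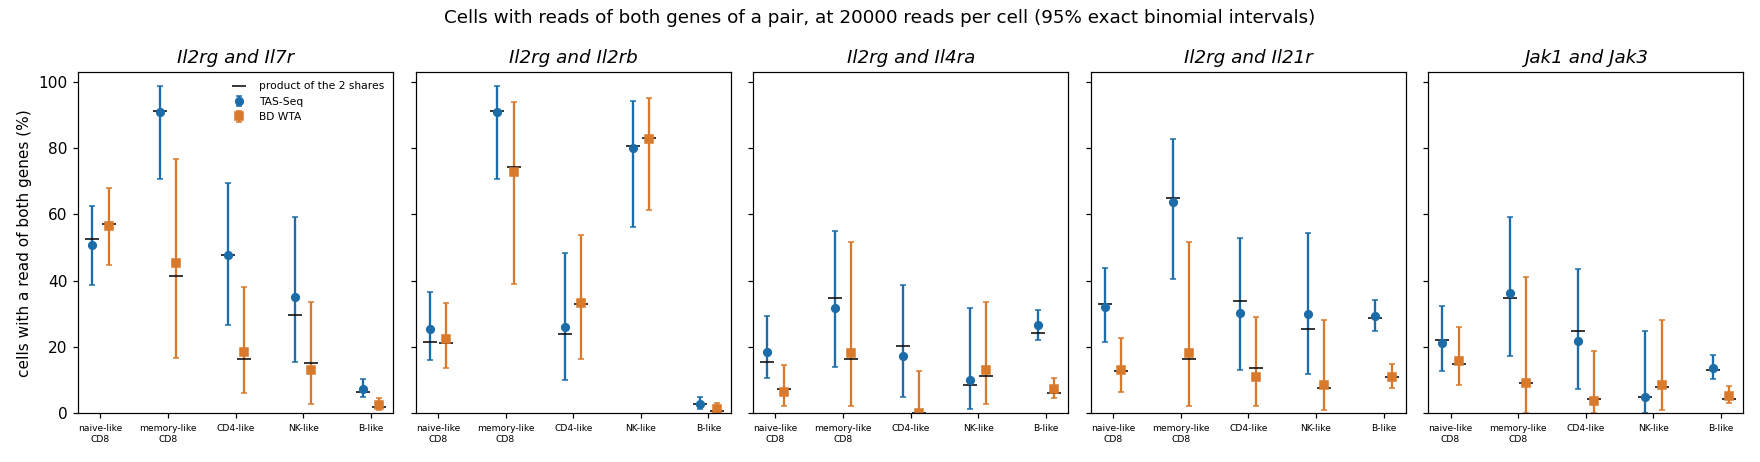
Percent of cells with reads of both genes of a pair at 20000 reads per cell, by class, for TAS-Seq (circles) and BD WTA (squares) with exact 95% binomial intervals, and a black dash for the product of the 2 single shares. Il2rg with Il2rb reaches 90.9% of memory-like CD8 cells in TAS-Seq and 82.6% of NK-like cells in BD WTA, and the dashes lie close to the points.

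Counted per cell, memory-like CD8 cells held reads of the most members on average. No count of all genes per cell stands beside this, so it is not read as a feature of the class. In BD WTA the means of memory-like CD8 and NK-like cells are over 11 and 23 cells. At 20000 reads they had a read of 5.23 of the 7 genes on average in TAS-Seq and of 3.64 in BD WTA. Naive-like CD8 cells had 3.49 and 2.99, CD4-like cells 3.61 and 2.26, NK-like cells 3.6 and 3.22, and B-like cells 2.55 and 1.64. No read of any member was found in 10 of 392 B-like cells in TAS-Seq and 39 of 329 in BD WTA.

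Other genes of the pathway were taken from a list of 35, of which 34 were in the tables and Il9 was not. The cytokines themselves were scarce in these cells. Il4 and Tslp had no read in any of the classes, Il15 had reads in 1 B-like cell of each library, and Il7 in 1 B-like cell of TAS-Seq and in 2 B-like cells and 1 naive-like CD8 cell of BD WTA. Il2 had reads in 29 of 405 B-like cells and 8 of 75 naive-like CD8 cells of TAS-Seq, at means of 2.38 and 3.55 CPM.

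Between memory-like and naive-like CD8 cells, 18 pathway genes were tested, of which 3 were past 2-fold higher and 1 lower in both libraries (5.39% and 7.84% of all genes tested), with a median log2 ratio of 0.18 in TAS-Seq and -0.13 in BD WTA beside -0.03 and -0.15 for all genes tested. Stat5a, a transcription factor downstream of JAK1 and JAK3, was higher at 81.1 against 17.1 CPM in TAS-Seq and 44.6 against 9.60 CPM in BD WTA. The value of BD WTA rested on 1 of 11 memory-like cells. Tyk2, a Janus kinase of other receptors, was 47.0 against 21 CPM and 16.9 against 1.56 CPM. The BD WTA values came from 22 reads in 4 memory-like cells and 5 reads in 5 naive-like cells. Ptpn2, a phosphatase that dampens JAK signals, was 119.8 against 52.4 CPM and 65.9 against 31.7 CPM. Stat6, the factor of IL-4 signals, was lower, at 34.3 against 87.6 CPM and 22.5 against 73.4 CPM, with reads in 9 memory-like cells of TAS-Seq and 1 of BD WTA.

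Of 24 pathway genes tested between T-like and B-like cells, 1 was past 2-fold higher and 5 lower, beside 5.03% and 16.8% of all genes tested. Socs3, a feedback inhibitor of JAK signals, was higher by log2 ratios of 2.34 and 5.18. In BD WTA it had 22 reads in 7 of 363 B-like cells, and reads in 2 of 11 memory-like and 7 of 77 naive-like CD8 cells. Fcer2a, the low-affinity IgE receptor that B cells carry, was lower by -6.74 and -9.32. Il9r, the chain for IL-9, was 79.7 and 57.4 CPM in B-like cells and at most 1.60 and 2.89 CPM in CD8 classes, with 18.2 and 40.8 CPM in CD4-like cells. Crlf2, the partner of Il7r in the TSLP receptor, was lower by -1.92 and -2.38, Ptpn6 by -1.29 and -1.48 and Sh2b3 by -2.89 and -2.69. Ptpn6 encodes a phosphatase and Sh2b3 an adaptor, and both restrain cytokine signals.

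Of 23 tested between NK-like and B-like cells, 4 were past 2-fold higher and 7 lower, beside 9.43% and 15.5% of all genes tested. Pim1, a survival kinase, was 814 and 1091 CPM in NK-like against 263 and 261 CPM in B-like cells, and Pim2 was 105 and 129 against 21.7 and 34.2 CPM. Cish, a target and inhibitor of STAT5 signals, was 22.7 and 20.6 against 1.64 and 1.88 CPM, from 2 NK-like cells in TAS-Seq and 1 in BD WTA. Socs3 was 75 and 59.5 against 12.3 and 0.808 CPM, from 5 NK-like cells in TAS-Seq and 3 in BD WTA. Lower in NK-like cells were Il9r, Stat5a, Ptpn6, Sh2b3, Mcl1, Myc and Fcer2a. Mcl1, a survival factor, was at 148 and 84.2 against 498 and 489 CPM, with reads in 12 and 11 NK-like cells. Il9r was read in 1 NK-like cell of each library, Stat5a in 2 and 1, and Sh2b3 in 1 and 2. Myc was read in 3 and 3 NK-like cells, Fcer2a in 7 and 2, and Ptpn6 in 16 and 6. The median log2 ratio of the list was 0.10 in TAS-Seq and -0.50 in BD WTA, beside -0.22 and -0.19 for all genes tested.

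**Figure D5:**
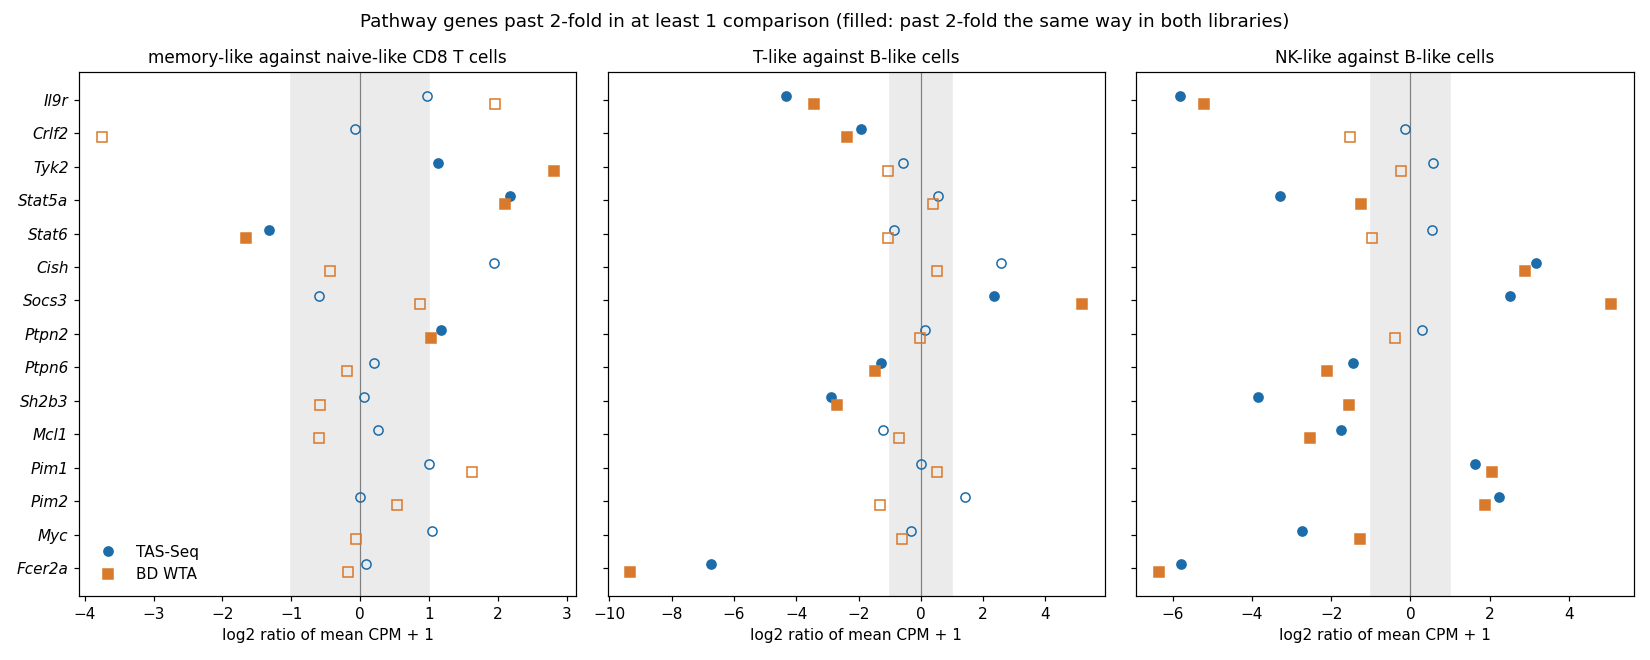
Log2 ratio of mean CPM + 1 of the pathway genes past 2-fold in at least 1 of 3 comparisons, with circles for TAS-Seq, squares for BD WTA, filled where both libraries were past 2-fold the same way and a grey band for differences within 2-fold. Stat5a lies right of the band between the CD8 classes (2.18 and 2.11), and Pim1 and Pim2 lie right of it in NK-like cells.

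The design compared the amplification methods. Averaged over the 5 classes, 1 of 7 members was past 2-fold between the methods, namely Il4ra, which was 2.41-fold higher in TAS-Seq (mean log2 ratio 1.27). The ratio was 4.91 in CD4-like cells, where BD WTA held 2 reads of Il4ra in 1 cell, and from -1.84 to 1.54 in the other classes. With classes from marker reads, and with a pseudocount of 10, Il4ra was within 2-fold. Among 13304 genes, 22.7% were past 2-fold higher in TAS-Seq and 9.65% in BD WTA, beside 1 and 0 of 7 members. Jak1 and Il2rg had mean log2 ratios of 0.04 and -0.01, and their ratios in single classes stayed between -0.40 and 0.48. Il2rb was lower in TAS-Seq in 4 of 5 classes, with a mean log2 ratio of -0.75. Il7r, Il21r and Jak3 had means of 0.31, 0.35 and 0.51, and Jak3 ran from -1.54 in NK-like to 1.56 in memory-like CD8 cells.

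More cells held a read of a member in TAS-Seq. At 20000 reads per cell the share was higher in TAS-Seq in 27 of 35 combinations of gene and class, with a median difference of 10.8 percentage points and a range from -14.0 to 50. No such value over all genes stands beside this, so it is not read as a feature of the members. Before thinning, 28233 genes had a read in TAS-Seq and 24191 in BD WTA. The median half-width of the 95% interval of a single share was 11.5 points, and the median difference was 3.59 points when at least 5 reads were asked for. The difference was wide for Il21r in B-like cells (41.6% against 18.2%) and the values were close for Il2rb in NK-like cells (95% against 95.7%). Cells with a read of Cd79a or Cd3e outside their own class were also more frequent in TAS-Seq, although the mean of Cd3e in B-like cells was not higher there, and the part of such reads in this difference was not tested.

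The genes whose pattern over the 5 classes was most like that of a member were found by the lower of the Pearson correlations in the 2 libraries, among 10356 genes. For Il2rb these were Cst7, Gm45837 and Pde2a, with lower correlations of 0.99, 0.98 and 0.98. For Il7r they were Saraf, Cd226 and Trac at 0.98, 0.97 and 0.96. For Jak1 they were H2az1, Fam102a and Gm19585 at 0.98, 0.96 and 0.95, and for Il2rg Dnaja1, Pld3 and Ier3 at 0.90, 0.89 and 0.88. Il4ra was closest to Safb, Ptrh2 and Zdhhc13 (0.96, 0.94 and 0.93), Il21r to Gm20716, Id3 and Adar (0.97, 0.97 and 0.95), and Jak3 to Mrpl15, Nanp and Noc2l (0.99, 0.95 and 0.95). These correlations are over 5 points that share their libraries, and they describe likeness only.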

How the data were processed

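Reads, not molecules, were counted in the deposited tables: counts per gene and cell barcode, which the authors made without molecular identifiers or normalization. The submitters' processing notes name cutadapt 2.10, Bowtie2 2.4.2 and R 3.6.3, and the builds GRCm38 and GRCh38. The methods of the study describe mapping to transcript sequences on the forward strand, and a subtraction of background reads from TAS-Seq tables by distribution-based error correction. Whether the table used here had that subtraction is not given in the sources used here. Reads on shared exons can move between genes, and amplification adds spread to low counts.

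Barcodes under 500 genes or over 0.25 of reads from mitochondrial genes were dropped (4 of 736 in TAS-Seq and 8 of 716 in BD WTA; the tables held 38656790 and 31608259 reads). Both libraries were clustered together with scanpy 1.11.5 (2000 variable genes, 20 components, 15 neighbours, resolution 2), leaving out the members and the pathway genes. A cluster took a cell type (T, B, NK, neutrophil) from 3 raised markers of it and more of its markers among the top 10 genes than of any other type, where T-cell subset markers counted for T cells. T-cell clusters were then split against the other T-cell clusters. CD8 needed both Cd8a and Cd8b1 raised. Memory-like CD8 needed 3 raised memory markers, more than of naive ones, and naive-like CD8 needed fewer than 3 and a read of 3 naive markers in 50% of cells each, raised or not. CD4-like needed 3 raised CD4 markers with Cd4 among them. Raised meant a gain of 1 in mean log2(CPM + 1) over the remaining cells, with a read in 50% of the cluster (20% for CD4 markers). The clusters were already known when these settings were chosen, so names rebuilt here can differ from those of the study. Of 22 clusters, 12 were B-like. Doublets were called with Scrublet at an expected rate of 0.05 (3 and 4 cells) and kept.

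The members, the gene lists and the marker lists were chosen with earlier results of these data known. Levels are means of CPM over cells, with a pseudocount of 1, and a gene was called past 2-fold where both libraries passed in 1 direction and a class on either side held at least 10 CPM. With 1 library per method there is no test, and the interval of a share is an exact Clopper-Pearson one at 95%. Named genes are the 7 members, the pathway genes past 2-fold in both libraries in a comparison of classes, and for each member the 3 genes most alike. Cytokines, Il2ra and the marker genes were named beside these after their values were seen. Alternatives were pooled CPM, TMM factors (edgeR 4.0.16), thinning, classes from marker reads (at least 5 reads), other clusterings, doublet removal, the highest cell left out, pseudocounts of 0.1 and 10, no minimum level, and folds of 1.5 and 3. The level of 1 marker gene is not reported here.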

Additional observations from a re-analysis of the deposited data

Results flagged for a closer look

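Between memory-like and naive-like CD8 T cells, 5 members had opposite signs in the libraries, and the difference between the libraries was not tested, since each method had 1 library. The log2 ratio of Il2rg was 0.26 in TAS-Seq and -0.62 in BD WTA. For Il7r it was 0.67 and -0.025. For Il4ra it was 0.83 and -0.046. For Il21r it was 0.28 and -0.60, and for Jak3 0.29 and -0.56. All of these lie within 2-fold, and the memory-like class of BD WTA held 11 cells.

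Between NK-like and B-like cells, 2 members had opposite signs, again without a test. Il4ra was at -3.19 in TAS-Seq and 0.18 in BD WTA, and Jak3 was at -1.92 and 0.25. The NK-like level of BD WTA came from 4 of 26 cells with a read of Il4ra and 3 of 26 with a read of Jak3.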

How the results depend on the processing

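No paired analysis was possible because there was a single library for each method. The count of members past 2-fold between T-like and B-like cells and between NK-like and B-like cells stayed within 1.5 times under every alternative run (the latter rose from 4 to 6 without the highest cell of each class), and that between CD8 classes became 2 at a fold of 1.5, where Jak1 was added. Between the methods the count of 1 became 0 with classes from marker reads, with a pseudocount of 10 and at a fold of 3, and 2 without the highest cell of each class and at a fold of 1.5. The members with the same highest class numbered 3, and 5 after thinning to 20000 reads. The pairs with the same highest class numbered 2, and 4 with no thinning, 1 with at least 2 reads and 1 with at least 5 reads. The median difference in the share of cells with a read, 10.8 points, ranged from 3.59 with at least 5 reads to 16 with no thinning. Of 406 single values of members under the alternatives, 391 kept their side of 2-fold or moved by less than 1 on the log2 scale, 3 came within 2-fold (Il4ra in T-like against B-like cells each time), 12 others that were not past 2-fold in both libraries moved by at least 1, and 0 reversed among those past 2-fold. A resolution of 1 and clustering each library alone gave no memory-like CD8 class, so that only the comparison of NK-like and B-like cells could be run there. The memory-like class of 11 cells in BD WTA limits every value that rests on it, and 3 reads over that class correspond to 3.22 CPM.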

Other observations

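Clusters outside the 5 classes also held reads of the receptor genes. A T-like cluster of 18 TAS-Seq and 24 BD WTA cells, in which neither Cd4 nor Cd8a was raised against the other T cells and whose top genes included Il2rb, Cxcr6 and Id2, held Il2rb at 940.4 and 1532 CPM and Il7r at 1188 and 828 CPM, in TAS-Seq and BD WTA. Its Il2rg level was 688 and 1211 CPM and its Jak3 level 127 and 195 CPM, against 93.7 and 40.0 CPM in CD4-like cells. In BD WTA this Jak3 level came from 4 of 24 cells, 1 of them at 2697 CPM, and that of CD4-like cells from 2 of 30. Pooled reads there gave 108 against 36.9 CPM. Neutrophil-like cells (10 and 11 cells) held no Il2rb read in either library, Il2rg at 53.4 and 89.6 CPM, and Il4ra at 356 and 76.8 CPM. Both Il2rg and Il4ra came from 4 of the 10 and 2 of the 11 cells. An unnamed cluster led by Mki67 and Top2a, genes of dividing cells, held Il2rb at 165 and 224 CPM and Il7r at 93.8 and 22.5 CPM in 9 and 11 cells. Of these, 6 and 4 cells had an Il2rb read, and 6 and 1 an Il7r read.

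Over the 12 B-like clusters Il21r ran from 57.6 to 255 CPM in TAS-Seq and from 0 to 268 CPM in BD WTA, but the libraries did not order the clusters alike, since the highest cluster of TAS-Seq (20 cells) was the one at 0 in BD WTA (16 cells). Il2rb passed 11.7 CPM in none of them.

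In the CD4-like class, cells with a Foxp3 read, 6 in TAS-Seq and 9 in BD WTA, were set beside the 17 and 21 without one, a split chosen after the values were seen. Il2ra, the high-affinity chain for IL-2, had a read in 5 of 6 and 5 of 9 cells with Foxp3 and in 0 of 17 and 3 of 21 without. Il7r levels were 415 against 460.2 CPM in TAS-Seq and 52.6 against 407 CPM in BD WTA, where 1 of the 21 cells held 5619 CPM and pooled reads gave 96.8 against 200.6 CPM. Il2rb was 493 against 104 CPM and 641 against 634 CPM. When CD4 cells were taken by their marker reads instead, in 66 and 72 cells, the mean Il7r level was 812 and 397 CPM, against 674 and 728.4 CPM in naive-like CD8 cells taken the same way.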
